A study of Mus musculus with 18 samples.

Results

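The genes described here encode the machinery of MHC class I presentation and are 10 of the 54232 genes in the count table, namely H2-K1, H2-D1, B2m, Tap1, Tap2, Tapbp, Psmb8, Psmb9, Erap1 and Nlrc5. They were chosen by name, as the rows whose Ensembl identifier maps to these mouse symbols, a rule that uses no measured value. The list itself was drawn up with earlier results of these data known. All 10 were matched and all 10 passed the filter on low counts that left 17074 genes for testing. RNA-seq libraries were analysed from 18 samples of dendritic cells (DCs) of C57BL/6J mice, all labelled CD11a KO. CD11a, the product of Itgal, is a subunit of the integrin LFA-1. The DCs were CD11b+, CD103+ or double-positive for both, and each subset came from the small intestinal lamina propria (LP) or from intestinal lymph nodes (LN). There were thus 6 groups of 3 libraries. Every group carried the same knockout, so differences below are between tissues and subsets. With no group of intact genotype, the part of the knockout in them cannot be told. The labels used here give no age, and do not say whether libraries of a group came from separate animals, so p-values measure the spread between these samples, which may be technical.

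Class I molecules consist of a polymorphic heavy chain, here H2-K1 or H2-D1, paired with the invariant light chain beta-2 microglobulin (B2m), and they show peptides from inside the cell to CD8+ T cells. The peptides are cut by the proteasome, in which the inducible subunits Psmb8 and Psmb9 can replace constitutive ones. They are carried into the endoplasmic reticulum by the Tap1-Tap2 transporter, trimmed there by Erap1 and loaded with the help of tapasin (Tapbp). Nlrc5 is a transactivator that acts with RFX, CREB and NF-Y factors at the promoters of class I genes. Intestinal DCs that carry CD103 without CD11b belong to the lineage known for presenting captured antigen on class I.

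Of the 10 genes, 7 lie on chromosome 17 in the mouse MHC, between bases 33915899 and 35267499 of GRCm38 (GENCODE vM21). Psmb9 (17:34181987-34187764), Tap1 (17:34187553-34197225), Psmb8 (17:34197721-34201454) and Tap2 (17:34203527-34216321) are neighbours within 34335 bases. They are flanked by Tapbp (17:33915899-33929292) and H2-K1 (17:33996017-34000347) on one side and H2-D1 (17:35262730-35267499) on the other. B2m lies on chromosome 2 (122147686-122153083), Erap1 on chromosome 13 (74639568-74693201) and Nlrc5 on chromosome 8 (94434356-94527272).

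Promoter windows of RefSeq on GRCm38.p6 were available for 8 of the 10 genes, in 9 windows that run from 250 bases before a transcription start to 50 bases from it. Tap2 and Nlrc5 had no entry. The windows are shown for the heavy and light chains, because these genes moved together, for Tap1, which shares 275 bases of its window with Psmb9 read from the other strand, and for Erap1, the member with the narrowest range over the libraries. Each is printed 5′ to 3′ from 250 bases before the start to base 30 from it. Capitals mark matches on either strand to the ISRE letters GAAANNGAA, the NF-kB letters GGNNTTNCC, the Y box CCAAT, the X2 or CRE core TGACG, or the GAS letters TTCNNNGAA.
H2-K1 (chr17:34000318-34000597, minus strand): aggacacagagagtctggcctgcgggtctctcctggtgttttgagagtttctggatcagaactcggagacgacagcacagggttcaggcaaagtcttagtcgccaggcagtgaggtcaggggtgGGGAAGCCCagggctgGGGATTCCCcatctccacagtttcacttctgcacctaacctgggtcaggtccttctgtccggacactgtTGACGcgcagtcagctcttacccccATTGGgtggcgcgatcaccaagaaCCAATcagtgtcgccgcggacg
H2-D1 (chr17:35262844-35263123, plus strand): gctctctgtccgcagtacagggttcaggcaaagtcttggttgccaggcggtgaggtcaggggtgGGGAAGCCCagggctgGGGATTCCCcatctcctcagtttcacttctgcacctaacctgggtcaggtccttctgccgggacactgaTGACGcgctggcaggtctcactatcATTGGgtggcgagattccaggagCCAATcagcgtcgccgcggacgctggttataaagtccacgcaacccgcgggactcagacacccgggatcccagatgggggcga
B2m (chr2:122147437-122147716, plus strand): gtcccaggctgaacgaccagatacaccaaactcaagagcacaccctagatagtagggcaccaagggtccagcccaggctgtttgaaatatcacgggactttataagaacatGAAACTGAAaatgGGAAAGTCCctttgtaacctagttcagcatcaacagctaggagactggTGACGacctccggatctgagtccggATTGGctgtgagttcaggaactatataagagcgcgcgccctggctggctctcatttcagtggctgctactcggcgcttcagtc
Tap1 (chr17:34187306-34187585, plus strand): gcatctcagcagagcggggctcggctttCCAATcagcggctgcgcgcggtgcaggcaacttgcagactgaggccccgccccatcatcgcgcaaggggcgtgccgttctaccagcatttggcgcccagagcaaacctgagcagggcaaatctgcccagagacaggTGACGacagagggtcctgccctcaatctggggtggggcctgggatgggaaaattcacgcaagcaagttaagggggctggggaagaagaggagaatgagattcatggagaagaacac
Erap1 (chr13:74639603-74639882, plus strand): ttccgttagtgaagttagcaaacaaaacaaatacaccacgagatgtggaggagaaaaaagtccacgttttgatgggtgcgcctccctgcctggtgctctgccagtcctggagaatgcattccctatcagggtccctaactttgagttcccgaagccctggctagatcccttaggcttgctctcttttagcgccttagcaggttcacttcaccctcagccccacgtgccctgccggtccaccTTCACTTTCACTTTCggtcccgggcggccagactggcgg

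The H2-K1 and H2-D1 windows each held a pair of NF-kB matches, an X2 match and a pair of Y box matches, in the same order. The B2m window held an ISRE match beside an NF-kB match, followed by an X2 and a Y box match, and a further X2 match past the printed stretch. The Tap1 window held a Y box and an X2 match and no match to the other letters, and the Erap1 window held 2 overlapping ISRE matches at its start site and none of the other letters. Among the 9 windows of these genes, the Y box was found in 7, X2 in 6, NF-kB in 4, ISRE in 2 and GAS in 1, against 37.4%, 20.8%, 16.0%, 8.6% and 8.3% of all 32851 windows in the table. These windows are not separate. H2-K1 has 2 overlapping windows with the same matches, and the Y box and X2 matches of Tap1 and Psmb9 lie in their 275 shared bases. Some sites are therefore counted more than once. A match describes letters and is not a binding site. The letters are also 1 fixed form of each element, so a window without a match may hold a variant. The H2-K1 and H2-D1 windows, for example, both hold tttcacttc after the NF-kB pair, which the ISRE letters do not match.

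Total counts per library lay between 23574292 and 46901985, with medians of 27311923 in LP and 27401041 in LN. Itgal, the gene named as knocked out, was counted in every library, at 17.6 to 26.7 counts per 1000000 counts of the scaled library (CPM) in LP and 6.45 to 23.01 CPM in LN. Gene counts cannot tell a transcribed knockout allele from an intact one. Xist was at most 0.286 CPM in LP libraries and 15.4 to 89.1 CPM in LN libraries. Ddx3y was 50.04 to 74.4 CPM in LP and above 50 CPM in only 2 LN libraries, CD11b+ replicate 3 and double-positive replicate 3, which also carried Xist. The sex of the animals and the tissue therefore cannot be told apart. The summed level of 5 DC markers (Flt3, Zbtb46, Itgax, H2-Ab1, Cd74) was 18951 to 19452 CPM in LN CD103+ and 35703 to 77682 CPM in the other libraries. Most of this sum is Cd74 and H2-Ab1. In LN CD103+ DCs Cd74 (14004 to 14596 CPM), H2-Ab1 (3517 to 3622 CPM) and Itgax (81.0 to 89.35 CPM) lay below every other group. Flt3, at 996.2 to 1058 CPM, lay above every other group there, and Zbtb46 overlapped others. Itgam, which encodes CD11b, was at most 1.27 CPM in the CD103+ sorts. In the CD11b+ and double-positive sorts of LP it was 55.3 to 76.4 CPM. In LN it was lower, at 13.8 to 25.7 CPM in CD11b+ and 4.85 to 5.76 CPM in double-positive DCs. Itgae, which encodes CD103, was 713.9 to 1440 CPM in the LP sorts chosen for it and 27.0 to 49.1 CPM in the LN ones. In CD11b+ sorts it was 92.1 to 292.5 CPM in LP, above every LN library, and 5.57 to 6.66 CPM in LN. Markers of other cells moved with tissue or subset. The sum of 10 T cell genes was 7.96 to 43.1 CPM in LP and 358 to 783 CPM in LN with no gene of the list at 0 in LN. The sum of 8 B cell genes was 11.6 to 51.2 and 38.1 to 233 CPM, and that of 8 macrophage genes was 37.5 to 1507 and 10.4 to 518 CPM. The sum of 8 epithelial genes was 59.4 to 851 and 25.3 to 64.4 CPM, and that of 5 plasma cell genes was 1087 to 8678 and 728 to 6158 CPM. The epithelial sum was highest in LP double-positive DCs. Most of it there was Epcam and Cdh1, at 412 to 524 and 140 to 264 CPM. The CD11b+ sorts stood apart, with plasma cell sums of 4586 to 8678 CPM against 728 to 2180 CPM in the other subsets. Within LN their B cell sum was 165 to 233 CPM against 38.1 to 70.2 CPM and their macrophage sum 314 to 518 CPM against 10.4 to 88.8 CPM. The part of these markers in the differences below was not tested.

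The heavy and light chains were the most abundant members and were near one level in all LP subsets and at 3 separate levels in the LN subsets. H2-K1 was at 2246, 2022 and 1854 CPM in the LP CD11b+ libraries (replicates 1 to 3), at 1889, 1765 and 1678 CPM in LP CD103+ and at 2208, 2153 and 1729 CPM in LP double-positive DCs. In LN it was at 3974, 4844 and 4725 CPM in CD11b+, at 13330, 13655 and 15298 CPM in CD103+ and at 9405, 9151 and 9538 CPM in double-positive DCs. The LP groups overlapped one another, and every LN library lay above every LP library. The LN groups did not overlap, in the order CD103+, double-positive, CD11b+.

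H2-D1 had the same order, with means of 20521 ± 1128 CPM (SD, n = 3 here and below) in LN CD103+, 14192 ± 91.8 CPM in LN double-positive and 7584 ± 569 CPM in LN CD11b+, against 3528 ± 296 to 4004 ± 445 CPM in the LP groups. B2m was at 15775 ± 1953, 11281 ± 361 and 5868 ± 493 CPM in the same LN groups and at 2260 ± 151 CPM in LP CD103+, 2475 ± 340 CPM in LP double-positive and 3070 ± 202 CPM in LP CD11b+. For H2-D1 the LP groups overlapped, and for B2m LP CD11b+ lay above the other two without overlap. Together H2-K1, H2-D1 and B2m took up 0.765% ± 0.0542 of all counts in LP CD103+ and 0.968% ± 0.0911 in LP CD11b+ DCs. In LN they took up 2.10% ± 0.115 in CD11b+, 3.15% ± 0.0413 in double-positive and 4.35% ± 0.293 in CD103+ DCs.

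**Figure D1:**
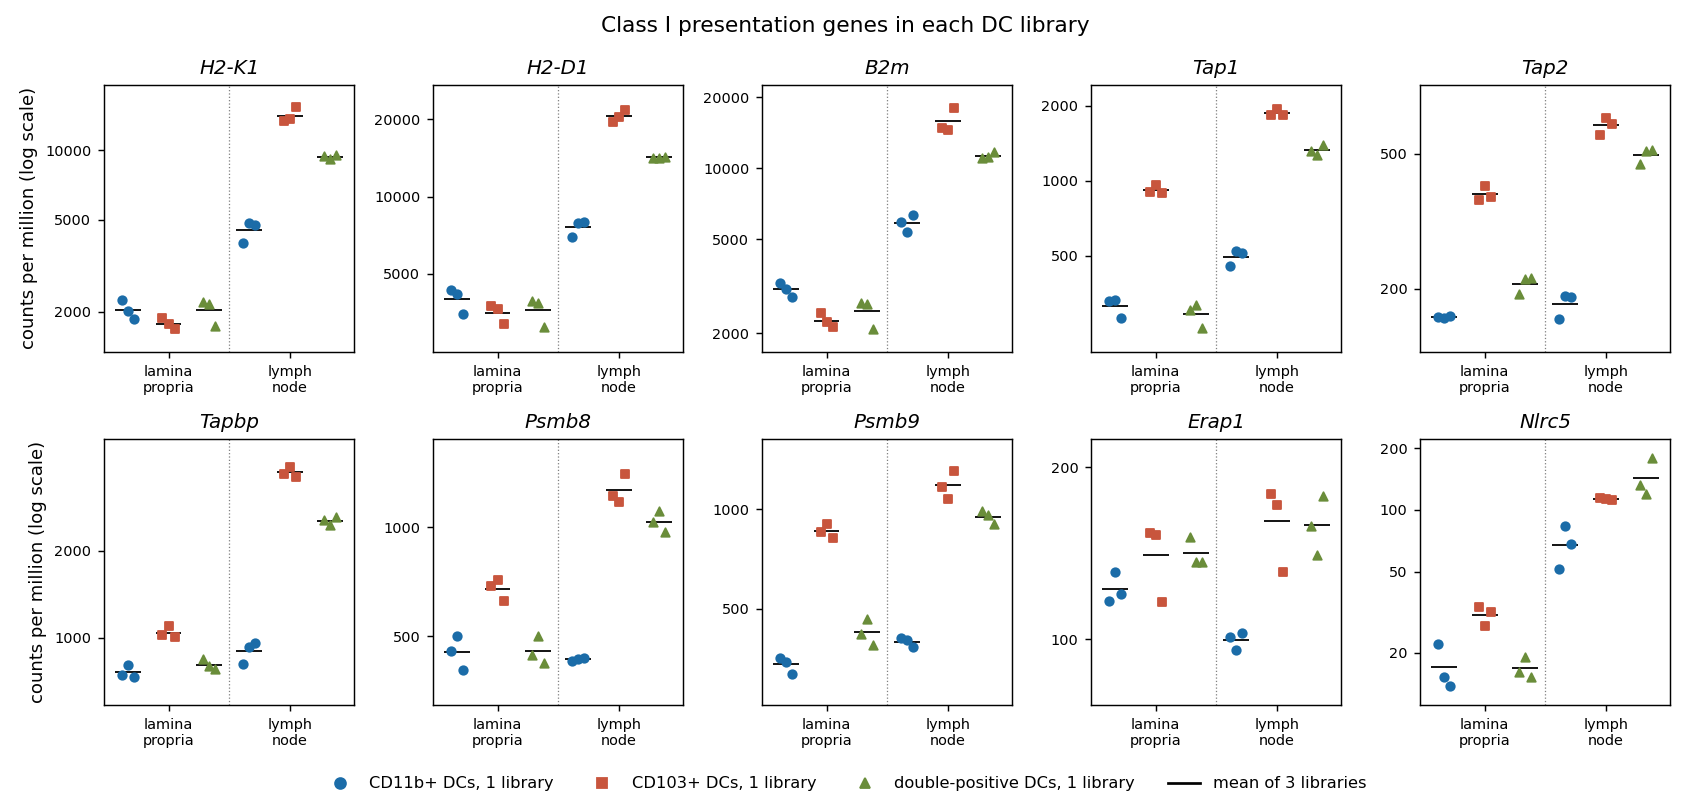
Level of each of the 10 genes in CPM (log axis) in every library, grouped by tissue and DC subset, with the mean of the 3 libraries of a group as a line. H2-K1, H2-D1 and B2m are close together in the lamina propria groups and separate in the lymph node groups. Tap1, Tap2 and Psmb9 are higher in CD103+ DCs than in the other lamina propria groups, and Erap1 spans only 95.8 to 179.7 CPM.

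Between tissues, the genes were compared within each subset with edgeR's quasi-likelihood test. A gene was called changed at a Benjamini-Hochberg adjusted p under 0.01 over all 17074 genes and a fold change over 2. Below, rose and fell mean higher and lower in LN than in LP, as no cells were followed over time. In CD11b+ DCs 2 of the 10 genes were called higher in LN and none lower, where 10.3% of all genes tested were called higher and 4.93% lower. In CD103+ DCs 6 of 10 were called higher and none lower (19.8% and 15.1% of all genes), and in double-positive DCs 9 of 10 were called higher and none lower (18.6% and 13.6%). These counts were also 2, 6 and 9 without the 2 LN libraries that carried both Xist and Ddx3y. Shares of all genes were not counted for that fit. The median log2 fold change of the 10 genes was 0.45, 1.43 and 1.81 in CD11b+, CD103+ and double-positive DCs, beside 0.03, 0.04 and 0.07 over all genes. Fewer cells of a type and less RNA per cell cannot be told apart in bulk libraries such as these.

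H2-K1 rose in all 3 subsets, with log2 fold changes of 1.15 ± 0.11 (SE, adjusted p = 7e-07) in CD11b+, 2.99 ± 0.12 (adjusted p = 2.3e-12) in CD103+ and 2.21 ± 0.12 (adjusted p = 8.7e-11) in double-positive DCs. These are 2.21-fold, 7.93-fold and 4.61-fold. H2-D1 rose by 2.54 ± 0.12 and 1.97 ± 0.11 on the log2 scale in CD103+ and double-positive DCs, and B2m by 2.80 ± 0.12 and 2.19 ± 0.12. In CD11b+ DCs H2-D1 and B2m were 1.89-fold and 1.91-fold higher in LN, with no overlap between libraries and adjusted p of 6.4e-06 and 8.2e-06, short of the limit on fold change.

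**Figure D2:**
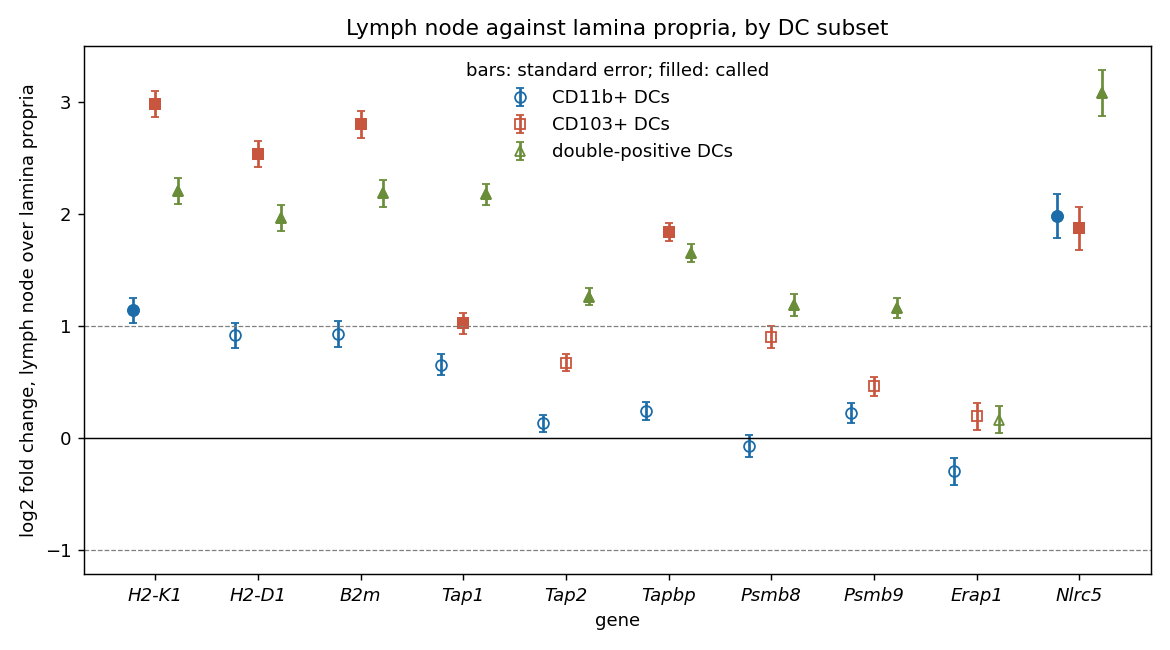
Log2 fold change of lymph node over lamina propria for each of the 10 genes in CD11b+, CD103+ and double-positive DCs, with standard errors from the edgeR fit as bars, filled symbols for called genes and dashed lines at a fold change of 2. The fold changes of H2-K1 are largest in CD103+ DCs, those of Tap1, Tap2, Psmb9 and Nlrc5 in double-positive DCs.

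Whether the tissue difference itself depended on the subset was tested with an F test over the 3 subsets, which called 9 of the 10 genes (adjusted p under 0.01, no limit on fold change), where 31.5% of all genes tested were called. The exception was Erap1 (adjusted p = 0.045). Pairs of subsets were then set against each other, in tests chosen after the counts above were known. The tissue effect was larger in CD103+ than in CD11b+ DCs for 6 of the 10 genes and smaller for none (14.0% and 13.2% of all genes). Of the 6, Tap2 (0.54 ± 0.11, adjusted p = 0.00085) was lost under total counts (0.18, adjusted p = 0.19). The effect was larger in double-positive than in CD11b+ DCs for 9 and smaller for none (9.56% and 9.13%). Between double-positive and CD103+ DCs it was larger in double-positive DCs for 4 genes, Tap1, Tap2, Psmb9 and Nlrc5, and smaller for 1, H2-K1 (6.28% and 6.81%).

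For H2-K1 the log2 difference between the tissue effects was 1.84 ± 0.16 for CD103+ minus CD11b+ DCs (adjusted p = 1.2e-07) and -0.78 ± 0.16 for double-positive minus CD103+ DCs (adjusted p = 0.0016). For B2m the same differences were 1.87 ± 0.16 (adjusted p = 1.5e-07) and -0.61 ± 0.16 (adjusted p = 0.011), and for H2-D1 they were 1.62 ± 0.16 (adjusted p = 4.6e-07) and -0.57 ± 0.16 (adjusted p = 0.014). The last differences of B2m and H2-D1 passed the threshold with the replicate block within each tissue (adjusted p = 0.0017 and 0.00096), in DESeq2 (0.00033 and 0.00059), with a stricter filter (0.0043 each) and without LP double-positive replicate 3 (0.0034 and 0.0054). The H2-K1 to H2-D1 ratio, both per kilobase of exon, was 0.425 to 0.496 in all LP libraries and 0.5035 to 0.618 in all LN libraries. It was thus higher in LN without overlap between tissues. Unique mapping is stated in the study's methods for its DC libraries, which are not said to include these 18. Under it reads that fit both near-identical chains or a Q-region gene would be lost, so the split between these chains is uncertain.

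For the transporter, LP CD103+ DCs stood above the other LP subsets. Tap1, a subunit of the transporter, was at 329, 333.5 and 281 CPM in LP CD11b+, at 303, 317 and 258 CPM in LP double-positive and at 897, 960 and 896 CPM in LP CD103+ DCs. In LN it was at 456, 523 and 511 CPM in CD11b+, at 1313, 1263 and 1394 CPM in double-positive and at 1831, 1936 and 1841 CPM in CD103+ DCs. LP CD103+ thus lay above LN CD11b+, and the only neighbours in this order that overlapped were LP CD11b+ and LP double-positive.

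Within LP, 3 of the 10 genes were called higher in CD103+ than in CD11b+ DCs and none lower, against 5.07% and 10.6% of all genes. The 3 were Tap1 (log2 fold change 1.54 ± 0.09, adjusted p = 1.2e-09), Psmb9 (1.34 ± 0.09, adjusted p = 3.8e-09) and Tap2 (1.21 ± 0.08, adjusted p = 3.5e-09). For H2-K1, H2-D1 and B2m the same comparison gave -0.20 ± 0.11, -0.18 ± 0.11 and -0.44 ± 0.11. Nlrc5, at 0.85 ± 0.19 (adjusted p = 0.0023), passed the limit on fold change only without LP CD11b+ replicate 1 (1.08). No member was called between LP double-positive and LP CD11b+ DCs, where 1.14% of all genes were called higher and 3.67% lower (edgeR). In that test 3 members had an unadjusted p under 0.05 (B2m, Tap2 and Psmb9, at -0.31, 0.33 and 0.32), and DESeq2 also called none. The share of all genes at that looser limit was not counted. Between LP double-positive and LP CD103+ DCs none was called higher and 2 were called lower (8.10% and 5.52% of all genes). They were Tap1 at -1.65 ± 0.09 (adjusted p = 5.8e-10) and Psmb9 at -1.02 ± 0.09 (adjusted p = 9.5e-08). Psmb9 fell short of the limit on fold change without LP CD103+ replicate 2 (-0.98) or without LP double-positive replicate 3 (-0.95), which leaves 1 gene called.

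**Figure D3:**
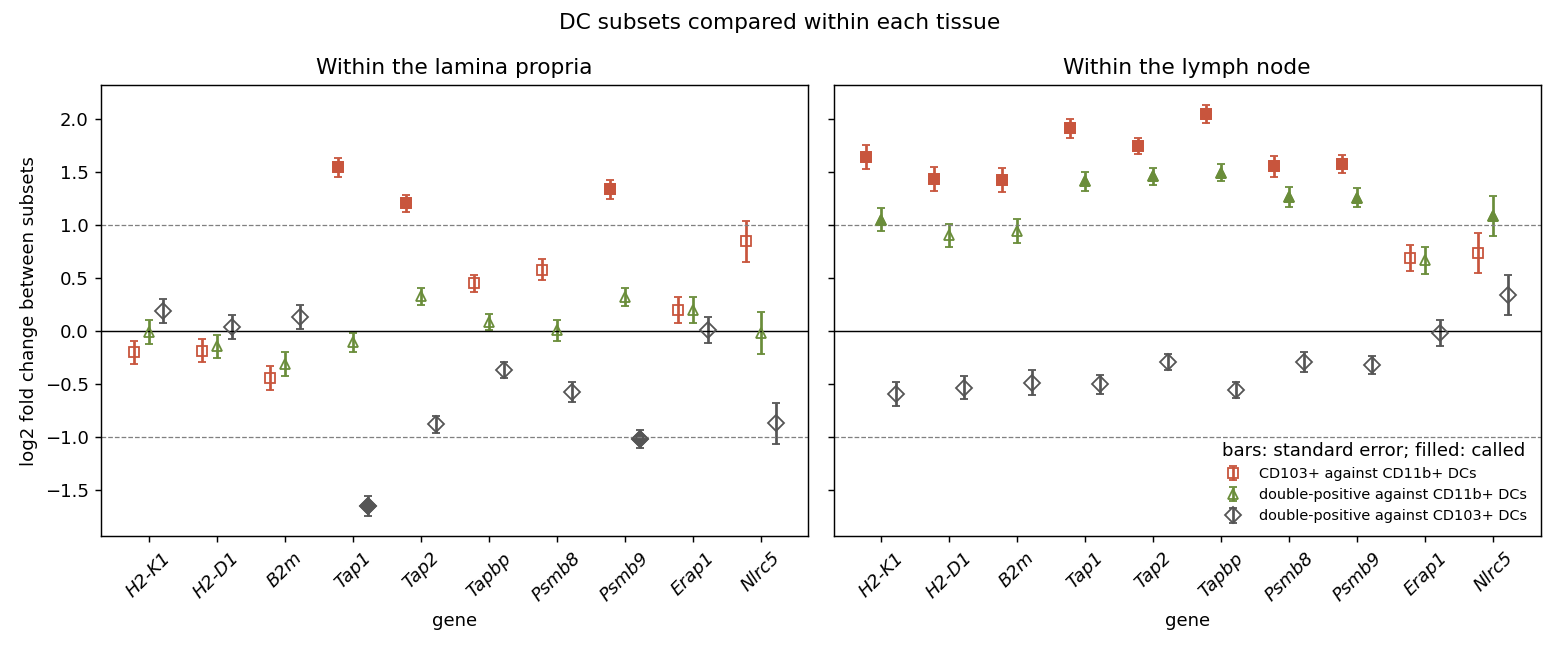
Log2 fold change between DC subsets within the lamina propria (left) and within the lymph node (right) for each of the 10 genes, with standard errors as bars, filled symbols for called genes and dashed lines at a fold change of 2. In the lamina propria only Tap1, Tap2 and Psmb9 reach the limit, and in the lymph node 8 genes do so for CD103+ against CD11b+ DCs.

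Between tissues, Tap1 rose in double-positive DCs by 2.18 ± 0.09 on the log2 scale (4.52-fold, adjusted p = 1.1e-11) and in CD103+ DCs by 1.03 ± 0.09 (2.04-fold, adjusted p = 4.2e-08). The second call lay at the limit on fold change and was lost without LP CD103+ replicate 3 or LN CD103+ replicate 2 (0.98 each), with no filter on low counts (0.97) and under scaling by total counts (0.80). In CD11b+ DCs Tap1 was 1.58-fold higher in LN (adjusted p = 2.6e-05), without overlap. The tissue effect of Tap1 was larger in double-positive than in CD103+ DCs by 1.15 ± 0.13 (adjusted p = 6.6e-06), the opposite order to that of H2-K1.

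Tap2, the other subunit, was at 164.5 ± 1.24 CPM in LP CD11b+, 206.6 ± 12.3 CPM in LP double-positive and 379.7 ± 19.7 CPM in LP CD103+ DCs, and at 180.5 ± 15.5, 496.5 ± 26.2 and 605.9 ± 35.9 CPM in the same subsets of LN. Its only tissue call was in double-positive DCs (log2 fold change 1.26 ± 0.08, adjusted p = 6.7e-10). In CD11b+ DCs the LP and LN libraries of Tap2 overlapped (0.13 ± 0.08, adjusted p = 0.19). Per kilobase of exon, Tap1 stood at 1.17 to 1.41 times Tap2 in LP CD11b+, 1.65 to 1.70 in LP CD103+ and 0.829 to 1.09 in LP double-positive libraries. It stood at 1.71 to 2.23 in LN libraries, so the ratio was higher in every LN library than in any LP library.

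Tapbp, which holds class I molecules at the transporter until they are loaded, was at 746, 808 and 730 CPM in LP CD11b+, at 1020, 1097 and 1005 CPM in LP CD103+ and at 846, 798 and 781 CPM in LP double-positive DCs. In LN it was at 813, 931 and 958 CPM in CD11b+, at 3680, 3904 and 3596 CPM in CD103+ and at 2560, 2451 and 2608 CPM in double-positive DCs. LN CD103+ and LN double-positive lay far above the other 4 groups, and LN CD11b+ overlapped LP double-positive. Tapbp rose by 1.84 ± 0.08 (3.58-fold, adjusted p = 6.9e-12) in CD103+ and by 1.65 ± 0.08 (3.14-fold, adjusted p = 3.7e-11) in double-positive DCs, and the log2 fold change in CD11b+ DCs was 0.24 ± 0.08 (adjusted p = 0.022). In the annotation 24.9% of the exon bases of Tapbp are shared with an antisense gene, Gm19412, and 14.1% of those of Tap2 with Gm15821. Counting that ignores strand, as stated there too, cannot separate them.

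**Figure D4:**
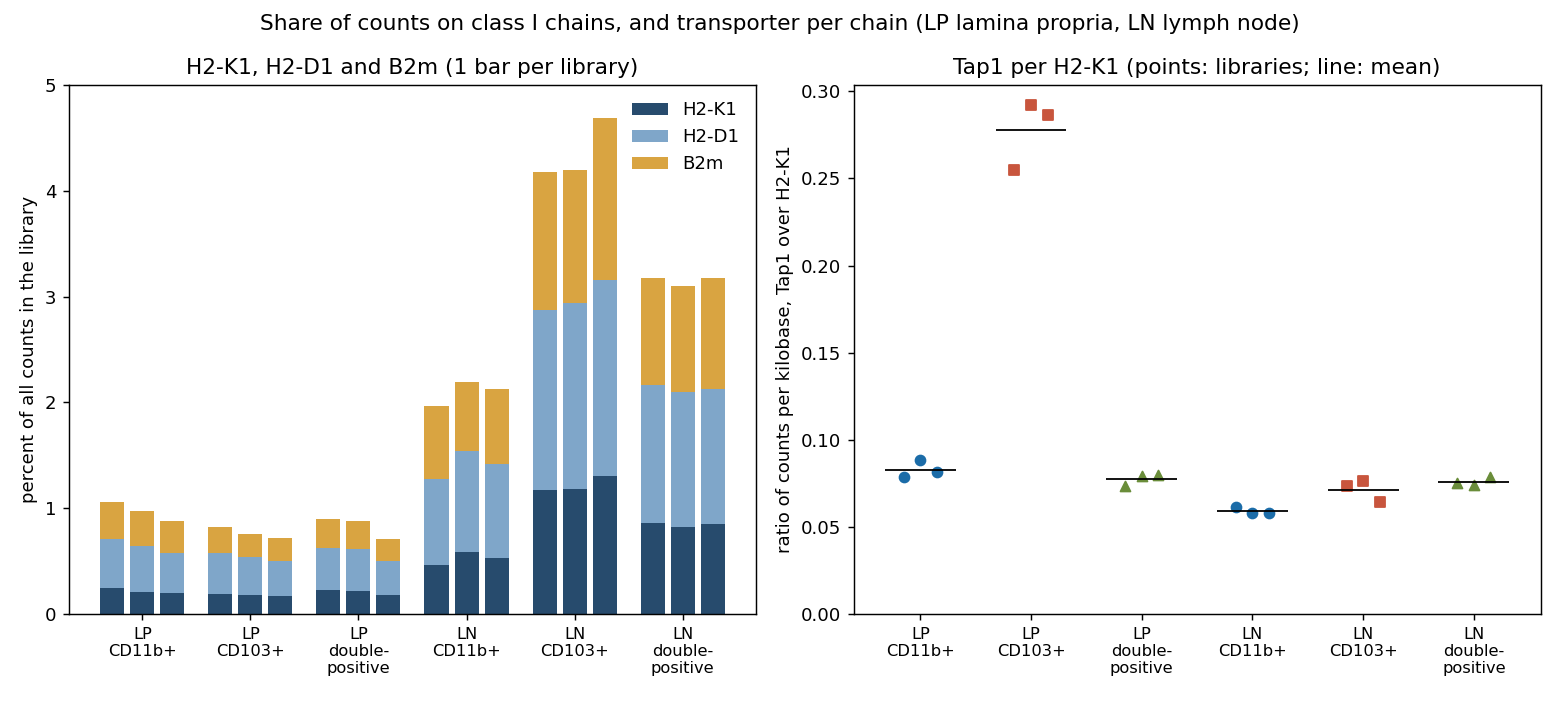
Left, percent of all counts of each library that fell on H2-K1, H2-D1 and B2m, stacked, 1 bar per library. Right, ratio of Tap1 to H2-K1 in counts per kilobase of exon, with a point for each library and a line at the mean. The share is highest in lymph node CD103+ DCs (4.18% to 4.69%), and the ratio stands apart in lamina propria CD103+ DCs.

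Set against the chain it serves, Tap1 stood at 0.255 to 0.292 counts per kilobase for each count per kilobase of H2-K1 in LP CD103+ DCs. The other 5 groups ranged from 0.0579 in LN CD11b+ to 0.0885 in LP CD11b+ DCs. In CD103+ DCs of LN the ratio was 0.0715 ± 0.00609, within the range of the other subsets, since H2-K1 differed 7.93-fold between tissues in this subset and Tap1 2.04-fold.

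The immunoproteasome subunits followed the transporter more closely than the chains. Psmb9 was at 353, 346 and 318 CPM in LP CD11b+, at 856, 899 and 816 CPM in LP CD103+ and at 420, 464 and 388 CPM in LP double-positive DCs. In LN it was at 407.5, 401 and 382 CPM in CD11b+, at 1168, 1071 and 1311 CPM in CD103+ and at 990, 960 and 899.9 CPM in double-positive DCs. LP CD103+ lay above every CD11b+ library of either tissue and below every LN CD103+ library. Psmb9 was called between tissues in double-positive DCs (1.16 ± 0.09, 2.24-fold, adjusted p = 6.9e-09), a call lost under total counts scaling (0.99). The log2 fold changes in CD11b+ and CD103+ DCs were 0.23 ± 0.09 (adjusted p = 0.047) and 0.47 ± 0.09 (adjusted p = 0.00017), the latter without overlap. The tissue effect was larger in double-positive than in CD103+ DCs by 0.70 ± 0.12 (adjusted p = 0.00051).

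Psmb8 was at 452 ± 49.0 CPM in LP CD11b+, 677 ± 45.1 CPM in LP CD103+ and 455 ± 40.8 CPM in LP double-positive DCs, and at 432 ± 4.89, 1270 ± 124 and 1039 ± 72.4 CPM in the same subsets of LN. Its tissue call was in double-positive DCs (1.19 ± 0.10, adjusted p = 2.1e-08). In CD103+ DCs it was 1.88-fold higher in LN without overlap (adjusted p = 4.4e-07), short of the limit on fold change. The tissue effects in these subsets differed by 0.28 ± 0.14 (adjusted p = 0.16). In CD11b+ DCs the tissues overlapped, at -0.07 ± 0.10 (adjusted p = 0.63), with a sign that turned under total counts (0.07). Psmb8 per kilobase stood at 1.43 to 2.07 times the constitutive subunit it replaces, Psmb5, in LP and LN CD11b+ libraries, at 2.47 to 2.82 in LN CD103+ and at 3.12 to 3.65 in LN double-positive libraries. Psmb9 to Psmb6, its constitutive counterpart, was 0.763 to 0.847 in LP CD11b+, 0.927 to 1.03 in LP double-positive and 1.62 to 1.74 in LP CD103+ DCs. In LN it was 0.943 to 1.06, 1.52 to 2.02 and 1.06 to 1.34 in the same subsets. This ratio was thus lower in LN than in LP for CD103+ DCs and higher in LN for the other subsets, without overlap. For Psmb10, another inducible subunit, the ratio to constitutive Psmb7 was instead lowest in CD103+ DCs of both tissues. It was 3.46 to 3.87 in LP CD103+ and 4.85 to 5.57 in LN CD103+ libraries. All libraries of the other subsets lay between 7.80 and 10.6. Tap1 and Psmb9 overlap by 212 exon bases on opposite strands, and 14.7% of the exon bases of Psmb8 lie under an antisense gene.

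Erap1, which trims peptides to length in the endoplasmic reticulum, had the narrowest range of the 10 over the libraries. It was at 117, 131 and 120 CPM in LP CD11b+, at 153, 152 and 116 CPM in LP CD103+ and at 151, 136 and 136.5 CPM in LP double-positive DCs. The LN levels were 101, 95.8 and 103 CPM in CD11b+, 179.7, 172 and 131 CPM in CD103+ and 158, 140.5 and 178 CPM in double-positive DCs. Only LN CD11b+ stood apart, below all other groups. The tissue effects were -0.30 ± 0.12, 0.20 ± 0.12 and 0.17 ± 0.12 in CD11b+, CD103+ and double-positive DCs (adjusted p = 0.068, 0.18 and 0.25). Those of CD103+ and double-positive DCs turned sign under total counts (-0.0265 and -0.0057). Within LN, Erap1 was 1.61-fold higher in CD103+ (adjusted p = 0.00017) and 1.59-fold higher in double-positive (adjusted p = 0.00032) than in CD11b+ DCs, short of the limit on fold change. The difference between tissue effects of CD103+ and CD11b+ DCs, 0.49 ± 0.17, had an adjusted p of 0.034, and of 0.0081 without LN CD103+ replicate 3. Of its exon bases, 11.5% are shared with Cast on the opposite strand.

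Nlrc5, the transactivator, was the least abundant member per kilobase and was, with H2-K1, 1 of 2 members called in all 3 subsets. It was at 22.2, 15.3 and 13.8 CPM in LP CD11b+, at 33.5, 27.0 and 31.9 CPM in LP CD103+ and at 16.1, 19.2 and 15.3 CPM in LP double-positive DCs. Levels in LN were 51.2, 83.1 and 68.5 CPM in CD11b+, 114, 113 and 111.5 CPM in CD103+ and 132, 119 and 179 CPM in double-positive DCs. Every LN library lay above every LP library, and LN double-positive was the highest group without overlap.

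The log2 fold changes of Nlrc5 between tissues were 1.98 ± 0.20 (3.96-fold, adjusted p = 8.1e-07) in CD11b+, 1.88 ± 0.19 (3.67-fold, adjusted p = 2.7e-07) in CD103+ and 3.09 ± 0.20 (8.49-fold, adjusted p = 1.5e-09) in double-positive DCs. The tissue effect in double-positive DCs was larger than in CD103+ DCs by 1.21 ± 0.27 (adjusted p = 0.0035) and than in CD11b+ DCs by 1.10 ± 0.27 (adjusted p = 0.0055). For CD103+ minus CD11b+ DCs the difference was -0.11 ± 0.27 (adjusted p = 0.80). These differences rested on few libraries. Without both libraries that carried Xist and Ddx3y the adjusted p were 0.016 and 0.031, and that of the F test, 0.0024, became 0.015. The difference from CD103+ DCs also missed the threshold without LP CD103+ replicate 1, LP double-positive replicate 1 or 3, or LN double-positive replicate 3 (adjusted p of 0.011 or 0.012). The difference from CD11b+ DCs did so without LP CD11b+ replicate 1, LP double-positive replicate 1 or 3, LN CD11b+ replicate 1 or 3, or LN double-positive replicate 3 (0.014 to 0.019) and under total counts (0.038).

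Within LN, 8 of the 10 genes were called higher in CD103+ than in CD11b+ DCs and none lower, against 10.2% and 15.6% of all genes. The exceptions were Erap1, above, and Nlrc5 (1.67-fold, adjusted p = 0.003). The largest of the 8 was Tapbp (2.05 ± 0.08, 4.14-fold, adjusted p = 8.7e-12), and the smallest was B2m (1.43 ± 0.12, adjusted p = 2.5e-08). B2m lay just under the limit on fold change with total counts (0.996). Between LN double-positive and LN CD11b+ DCs, 7 of 10 were called higher and none lower (6.92% and 9.82% of all genes), with H2-D1 (1.87-fold), B2m (1.92-fold) and Erap1 as exceptions. The count fell to 3 under total counts, where Tap1, Tap2 and Tapbp remained called. The share of all genes under that scaling was not counted. H2-K1 (1.05 ± 0.11) was not called without LN CD11b+ replicate 1 (0.94), nor Nlrc5 (1.08 ± 0.19) without LN CD11b+ replicate 1 (0.89), LN double-positive replicate 3 (0.88) or both libraries that carried Xist and Ddx3y (0.90).

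No member was called between LN double-positive and LN CD103+ DCs, where 4.69% of all genes were called higher and 1.84% lower. Of the 10, 8 had an unadjusted p under 0.05 in the edgeR test, all lower in double-positive DCs, from -0.29 to -0.59 on the log2 scale, and DESeq2 also called none. With no limit on fold change 5 were called, H2-K1, H2-D1, B2m, Tap1 and Tapbp. Shares of all genes at these looser limits were not counted, so the counts cannot be set against them. The median of the 10 genes was 1.57, 1.17 and -0.40 in the 3 LN comparisons in the order given and 0.52, 5e-04 and -0.47 in the 3 LP ones, with medians of all genes from -0.13 to 0.01. The comparisons share groups, so their values stand side by side and are not independent.

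Over the 6 group means of log2 CPM the members were compared by correlation, given here as a description since all genes share these libraries. H2-K1, H2-D1 and B2m had Pearson r of 0.996 to 0.999 with one another, and Tap2, Psmb8 and Psmb9 had r of 0.951 to 0.994. Between H2-K1 and Psmb9 r was 0.651. Tapbp had r of 0.876 or more with the other members except Nlrc5 and Erap1 (0.850 and 0.701). Nlrc5 was closer to the chains (0.918 to 0.927) than to Psmb9 (0.705). Outside the machinery, the genes most like the mean of the 10, among 8669 genes with a mean of at least 10 CPM, were Mapkap1, Gfpt1, Atmin, Dctn2 and 1810013L24Rik (r of 0.996 to 0.998). Those most like Nlrc5 included Apobec3, Peli1, Ubr2 and Mdfic (0.993 to 0.999). Atmin, for example, had means of 30.4, 68.0 and 38.9 CPM in LP CD11b+, CD103+ and double-positive DCs and of 52.6, 281 and 219.6 CPM in LN.

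The rest of the pathway was described by fixed lists. Other class I genes, the H2-Q, H2-T and H2-M chains with Mr1 and Cd1d1, were called higher in LN for 6 of 10 in CD11b+, 8 of 10 in CD103+ and 6 of 10 in double-positive DCs and lower for none, where 10.3%, 19.8% and 18.6% of all genes were called higher. Their medians were 1.21, 2.34 and 1.59 on the log2 scale. H2-Q6 and H2-Q7, the Q-region chains, rose in double-positive DCs (4.15 ± 0.27 and 4.31 ± 0.29, adjusted p = 1.5e-09 and 1.9e-09), in CD103+ (3.80 and 4.03) and CD11b+ DCs (2.52 and 2.30). H2-Q7 was at 32.1 to 155 CPM in LP and 570 to 2077 CPM in LN, and as near-identical copies these genes are uncertain. Cd1d1, which presents lipids, was at 961 to 1021 CPM in LN double-positive DCs and 223 to 260 CPM in LN CD103+ DCs, a called difference (2.02). H2-Q4 rose by 3.54 ± 0.17 in CD103+ DCs (adjusted p = 1.6e-11).

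Of the 7 other proteasome genes, none was called between tissues in CD11b+ DCs, where 10.3% of all genes were called higher and 4.93% lower. In each of CD103+ and double-positive DCs 2 were called higher, beside 19.8% and 18.6% of all genes. With 7 genes, these counts are close to those shares. Psme2, a subunit of the activator PA28, rose by 2.50 ± 0.11 in CD103+ (adjusted p = 9.1e-12) and 2.28 ± 0.11 in double-positive DCs (adjusted p = 3.9e-11). Its level was 519 to 556.5 CPM in LP CD103+ and 2814 to 3419 CPM in LN CD103+ libraries. Its partner Psme1 rose in double-positive DCs (1.07 ± 0.08, adjusted p = 5.8e-09), and Psmb10, the third inducible catalytic subunit, rose in CD103+ DCs (1.20 ± 0.10, adjusted p = 1.2e-08). Psmb10 departed from Psmb8 and Psmb9 in LP, at 170 ± 13.8 CPM in CD103+ DCs against 233 ± 14.3 CPM in CD11b+ and 259 ± 19.5 CPM in double-positive DCs.

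Among the 5 peptide loading genes, Tapbpl, a relative of tapasin, rose by 2.72 ± 0.11 in CD103+ (adjusted p = 3.2e-12) and 2.59 ± 0.11 in double-positive DCs (adjusted p = 1e-11). Pdia3, the disulfide isomerase of the loading complex, fell by 1.00 in CD103+ DCs (SE 0.10, adjusted p = 1.2e-07). This call lay at the limit on fold change, and no other gene of this list was called. The list median was -0.44, -0.44 and -0.22 in CD11b+, CD103+ and double-positive DCs. The 6 peptidases went both ways. Thop1, which degrades peptides, was called lower in LN in all 3 subsets (-1.18, -1.86 and -1.76). Lap3 was called lower in CD103+ DCs (-1.53 ± 0.12) and Npepps higher in CD103+ and double-positive DCs (1.08 and 1.20). Of all genes, 10.3%, 19.8% and 18.6% were called higher in CD11b+, CD103+ and double-positive DCs, and 4.93%, 15.1% and 13.6% lower. Lists of 5 and 6 genes are too short to set against these shares.

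Of 11 regulators of class I genes, none was called in CD11b+ DCs, where 10.3% of all genes were called higher and 4.93% lower. In CD103+ DCs 3 were called higher, Irf1 (2.80 ± 0.13, adjusted p = 1.2e-11), Nfya (1.61 ± 0.13, adjusted p = 2.1e-08) and Rfxank (1.40 ± 0.14, adjusted p = 1.7e-07). Of the 11, 1 was called lower, and over all genes 19.8% were called higher and 15.1% lower. The gene called lower was Rfxap (-1.25, adjusted p = 1.6e-08), which is named after its value was seen. In double-positive DCs 3 were called higher, Irf1 (1.68 ± 0.12) and Rfxank (1.17 ± 0.14) among them, and none was called lower (18.6% and 13.6% of all genes). With 11 genes, these counts are close to the shares of all genes. Irf1, an interferon regulatory factor that binds the ISRE, was at 1573 to 1672 CPM in LN CD103+ and 1046 to 1175 CPM in LN double-positive DCs. It was at 282 to 348 CPM in LN CD11b+ and 187 to 368 CPM in all LP libraries. The LN groups of Irf1 thus stood in the order CD103+, double-positive, CD11b+, without overlap.

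**Figure D5:**
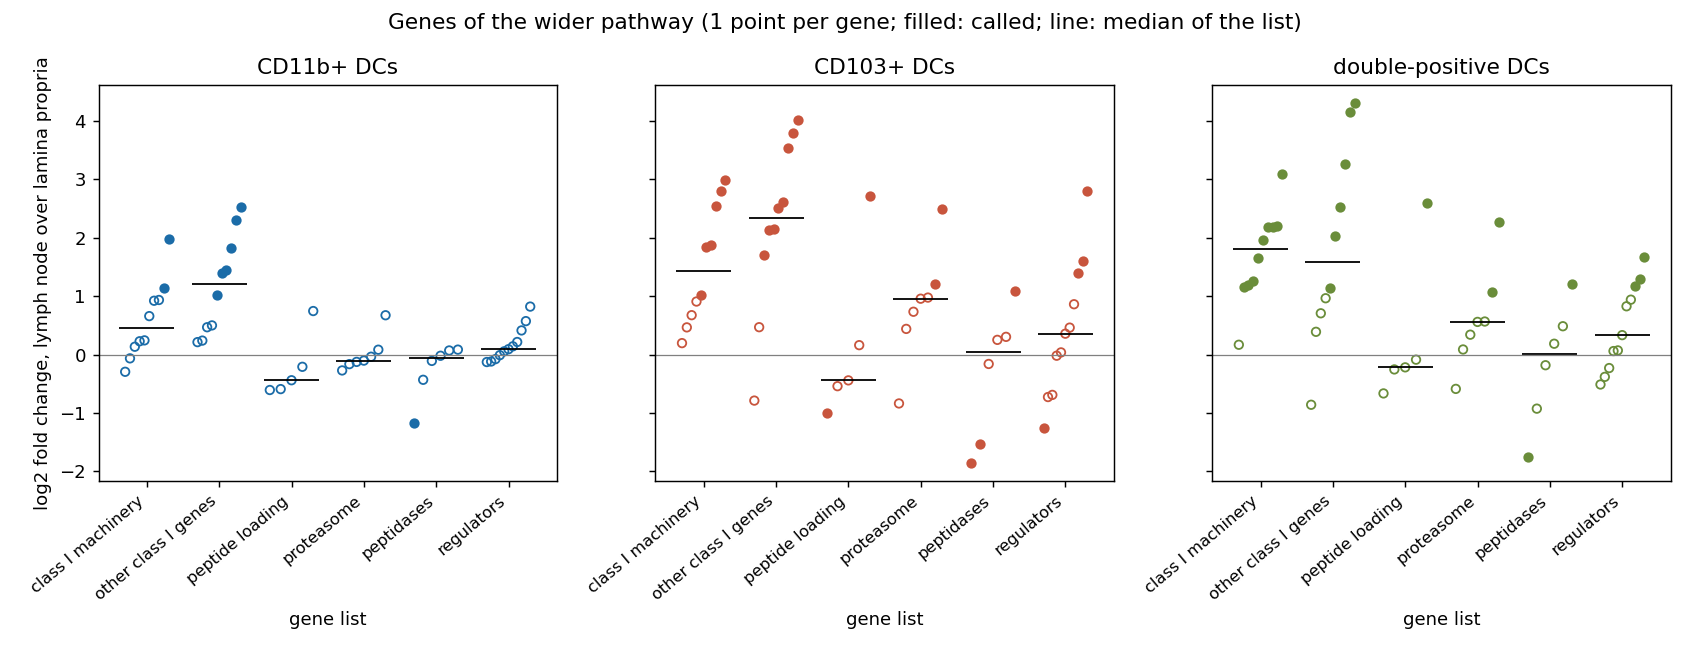
Log2 fold change of lymph node over lamina propria for the 10 genes and for each gene of 5 further lists of the class I pathway, in CD11b+, CD103+ and double-positive DCs, with 1 point per gene, filled where called, and a line at the median of each list. Other class I genes lie highest beside the 10 genes, while the medians of peptide loading genes and peptidases are at or near 0 or below it.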

How the data were processed

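RNA-seq of 18 DC libraries was analysed from a single table in which the authors deposited raw counts of reads per gene, without normalization, by Ensembl identifier. The submitters' processing notes name FastQC 0.11.7, STAR 2.6 and GRCm38. The labels name the SMART-seq v4 kit. Unique alignments and counting without regard to strand are stated in the study's methods for its DC libraries, which are not said to include these 18. Symbols were matched by identifier for 54079 of 54232 genes, with positions from GENCODE vM21.

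Counts were scaled by TMM in edgeR 4.0.16 (R 4.3.3), filtered by filterByExpr, and fitted with a mean for each of the 6 groups in one quasi-likelihood model, from which 9 comparisons of 2 groups, an F test and 3 differences of tissue effects were tested with Benjamini-Hochberg adjustment over 17074 genes. Thresholds were an adjusted p of 0.01 and a fold change of 2, as in the study's methods. CPM values use the TMM-scaled library sizes, and per kilobase means per kilobase of merged exons. DESeq2 1.42.0, other scalings, filters and thresholds, a replicate block and leaving out each library were the alternatives. The fit was tested on simulated counts. Total counts of at least 23574292 per library put 417 or more counts on every member in every library. Between replicates of a group the chi-square per gene was at least 14.9, so each library was taken as a separate sample.

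The rule for the members uses no measured value, but members and gene lists were chosen with earlier results of these data known. All 10 members are named, with at most 3 called genes of largest change per list and tissue comparison, and the 5 genes most like the members' mean profile and the 5 most like Nlrc5. Among these, 2 genes are not reported here. Figures were drawn with matplotlib 3.10.9.

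Same-numbered LP libraries deviated together in all 3 LP comparisons (correlations of deviations from 0.124 to 0.378 over genes), so the replicate numbers were taken to pair LP libraries. In each of the LN and tissue comparisons at least 1 pair was at or below 0.1. In LN double-positive against CD11b+ DCs the correlations were 0.096 to 0.35, near those of LP, and whether those libraries pair is not known.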

Additional observations from a re-analysis of the deposited data

Results flagged for a closer look

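The tissue difference differed between the 3 subsets, by the F test of edgeR with Benjamini-Hochberg adjustment over all genes, for 9 of the 10 genes of the machinery. The adjusted p was 3.9e-07 for H2-K1, 1.4e-06 for H2-D1, 4.1e-07 for B2m, 2.2e-07 for Tap1, 1.6e-06 for Tap2, 1.6e-08 for Tapbp, 3.7e-06 for Psmb8, 2.7e-05 for Psmb9 and 0.0024 for Nlrc5. The log2 fold change of LN over LP was above 0 in every subset for 8 of these, and Psmb8 was the exception, at -0.07 in CD11b+ DCs.

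Over the 5 further lists of the pathway the same test passed for 24 of 39 genes, all 7 proteasome genes among them, where 31.5% of all genes passed. Those named in the text because they were picked as the largest called changes number 13. For the proteasome genes the adjusted p was 2.7e-06 for Psmb10, 2.8e-06 for Psme1 and 1.1e-07 for Psme2, and for Tapbpl it was 3.5e-08. For the other class I genes it was 3e-06 for H2-Q4, 0.0024 for H2-Q6, 0.00047 for H2-Q7 and 0.00081 for Cd1d1. For the regulators it was 0.0059 for Rfxank, 6.6e-08 for Irf1 and 3.2e-05 for Nfya, and for the peptidases it was 1.3e-05 for Npepps and 0.00026 for Lap3. Groups of 3 libraries are too small for a search for outlying samples, and none was made.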

How the results depend on the processing

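Of 66 calls on the 10 genes, 54 held under every alternative and 12 were lost under at least 1. Scaling by total counts moved the median log2 fold change of all genes by 0.14, -0.21 and -0.17 in the CD11b+, CD103+ and double-positive tissue comparisons and by -0.43 and -0.37 in LN CD103+ and double-positive against CD11b+ DCs. It gave 4 genes called between tissues in CD11b+ DCs in place of 2 and 3 in LN double-positive against CD11b+ DCs in place of 7. With no limit on fold change the counts were 5 between tissues in CD11b+ DCs, and in LP 7 for CD103+ against CD11b+, 1 for double-positive against CD11b+ and 6 for double-positive against CD103+ DCs, and 5 for LN double-positive against CD103+ DCs. Shares of all genes called were counted only for the fit and thresholds given above. The counts under these alternatives therefore cannot be set against such shares. Leaving out 1 library gave 1 to 2 for LP double-positive against CD103+ DCs.

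The replicate block changed no call between 2 groups and no F test call. With the block within each tissue the differences between the tissue effects of double-positive and CD103+ DCs numbered 7 in place of 5, with H2-D1 and B2m added, and Nlrc5 in LP double-positive against CD11b+ DCs turned from -0.02 to 0.0037. The share of all genes with that block was not counted. In LN and between tissues it is not known whether libraries of the same number are paired. Replicate 3 of LN CD11b+ and of LN double-positive DCs both carried Xist and Ddx3y.

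The other values that turned sign were small and uncalled. Under total counts they were Psmb8 (0.071), Psmb10 (0.012) and Erap1 (-0.0265 in CD103+, -0.0057 in double-positive DCs) between tissues, Psmb8 in LP double-positive against CD11b+ DCs (-0.051), Erap1 in LN double-positive against CD103+ DCs (0.042), and the differences of tissue effects of Psmb9 for CD103+ minus CD11b+ (-0.12) and of Erap1 for double-positive minus CD103+ DCs (0.021). With no filter they were Psmb8 (-0.0026) in LP double-positive against CD11b+, Erap1 in double-positive against CD103+ DCs of LP (-0.0073) and LN (0.0058) and its difference of tissue effects (0.013). With a stricter filter, Psmb8 in LP double-positive against CD11b+ DCs was -0.0038, and with only the 6 libraries compared it was -0.01. Leaving out 1 library gave -0.071 to 0.086 for it, -0.15 to 0.012 for Psmb8 between tissues in CD11b+ DCs, -0.073 to 0.096 for H2-K1 and -0.15 to 0.21 for Nlrc5 in LP double-positive against CD11b+ DCs. In double-positive against CD103+ DCs it gave -0.035 to 0.14 for H2-D1 and -0.12 to 0.076 for Erap1 in LP and -0.14 to 0.079 for Erap1 in LN, and for the differences of tissue effects -0.34 to 0.0235 for Nlrc5 (CD103+ minus CD11b+) and -0.14 to 0.11 for Erap1 (double-positive minus CD103+). The causes were not tested. Each of the 10 genes had 417 or more counts in every library, and all of these values rest on 3 libraries per group.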
